A study of Mus musculus with 10 samples.

Results

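The transcripts described are those of 9 enzymes or enzyme subunits of the citric acid cycle (Cs, Idh3a, Idh3b, Idh3g, Ogdh, Dlst, Suclg1, Fh1 and Mdh2), chosen by gene symbol. Each had 1 row in a count table of 40501 gene identifiers, and all 9 had enough reads to be tested. The RNA came from the inguinal white adipose tissue, a subcutaneous depot at the groin, of male C57/BL6J mice fed chow. In the PexRAP-AKO group (5 mice, replicates 1, 2, 3, 5 and 6), Cre was present and PexRAP was deleted in adipose tissue. PexRAP (ADHAPR, gene Dhrs7b) is a reductase of peroxisomal ether lipid synthesis. The Control group (5 mice, replicates 2, 3, 5, 7 and 8) was Cre-negative. The sources used here give neither the Cre driver nor the exons removed, and the labels give 8 weeks both as the age and as the time on chow. The labels do not say that the 5 libraries of a group came from separate litters or cages. A p-value here sets a group difference against the spread between these libraries only.

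The citric acid cycle runs in the mitochondrial matrix and oxidises the acetyl group of acetyl-CoA to carbon dioxide, passing electrons to NADH and to the respiratory chain. Citrate synthase opens it, isocitrate and oxoglutarate dehydrogenases release the carbon dioxide, and fumarase and malate dehydrogenase regenerate oxaloacetate. In white adipocytes part of the citrate leaves the mitochondrion and supplies carbon for fatty acid synthesis. Brown and beige adipocytes hold many more mitochondria than white ones, and they express the enzymes of the cycle more strongly.

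The libraries held 11274865 to 19881168 counts. Dhrs7b, the targeted gene, ranged from 61.2 to 95.8 CPM (reads in proportion to the library's TMM-scaled total) in the Control libraries and from 17.9 to 22.8 CPM in the PexRAP-AKO libraries, without overlap. Its log2 fold change by the quasi-likelihood test of edgeR was -2.05 (SE 0.12, Benjamini-Hochberg adjusted p = 1.54e-05). All 10 white adipocyte markers were detected in each library, with a summed level of 41390 to 51390 CPM in Control and 37940 to 46870 CPM in PexRAP-AKO. Each library thus carried adipocyte transcripts, which do not identify the depot. Summed T cell markers reached 99.1 CPM in PexRAP-AKO replicate 6, against at most 16.9 CPM in any other library. The same library was highest for summed B cell markers (96.0 CPM) and epithelial markers (36.9 CPM, at most 7.01 CPM elsewhere). Control replicate 8 followed for B cell markers with 47.8 CPM, and the other 8 libraries held 2.51 to 16.3 CPM.

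All 9 enzyme transcripts had a higher mean in PexRAP-AKO than in Control, by 1.14-fold (Ogdh) to 1.32-fold (Cs), and none of them passed the test across all genes. By edgeR, 0 of 9 passed at an adjusted p under 0.05, beside 0.0939% of all 14913 genes tested that were called higher. Their adjusted p-values lay between 0.182 and 0.445. At an unadjusted p under 0.05, 8 of 9 were higher, Ogdh being the exception, where 9.01% of all genes were higher at that level. The median log2 fold change of the 9 was 0.32, with a range of 0.18 to 0.40, and the median of all genes was 0.00 (-0.000653). By limma voom 0 of 9 passed. By DESeq2 only Idh3g did (adjusted p = 0.0416), where 3.0% of the genes given an adjusted p were called higher. The 9 values are not separate pieces of evidence, because the 9 transcripts went up and down together from library to library, as described below.

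Cs (ENSMUSG00000005683, chromosome 10, 128337734 to 128362479, GRCm38) encodes citrate synthase, which joins acetyl-CoA to oxaloacetate. It stood at 694, 823, 826, 621 and 489 CPM in Control replicates 2, 3, 5, 7 and 8, and at 728, 1060, 936, 1023 and 821 CPM in PexRAP-AKO replicates 1, 2, 3, 5 and 6. The groups overlapped: 3 of 5 PexRAP-AKO libraries were above the highest Control library, and replicates 1 and 6 were not. The Control mean was 691 ± 143 CPM and the PexRAP-AKO mean 914 ± 139 CPM (SD, n = 5 each), a log2 fold change of 0.40 (SE 0.15, edgeR adjusted p = 0.244), the largest of the 9.

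The NAD-dependent isocitrate dehydrogenase, which turns isocitrate into 2-oxoglutarate and carbon dioxide, is built from a catalytic alpha subunit (Idh3a) and the beta (Idh3b) and gamma (Idh3g) subunits. Idh3a (ENSMUSG00000032279, chromosome 9, 54586334 to 54604661) stood at 310, 344, 346, 249.6 and 227 CPM in Control replicates 2, 3, 5, 7 and 8. In PexRAP-AKO replicates 1, 2, 3, 5 and 6 it stood at 312, 394, 408, 439.9 and 360.2 CPM. Control replicates 7 and 8 were the low ones, and every PexRAP-AKO library except replicate 1 was above all Control libraries. The log2 fold change of Idh3a was 0.37 (SE 0.13, edgeR adjusted p = 0.223).

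Idh3g (ENSMUSG00000002010, chromosome X, 73778963 to 73786897) varied least among the Control libraries, at 263, 303, 282, 248 and 227 CPM, with a coefficient of variation of 11.1%. The PexRAP-AKO libraries were at 278, 371, 333, 347 and 316.5 CPM, and again replicate 1 alone did not clear the highest Control value. Idh3g had the smallest p of the 9 (log2 fold change 0.31, SE 0.10, edgeR adjusted p = 0.182). Idh3b (ENSMUSG00000027406, chromosome 2, 130279309 to 130284547) ranged from 227 to 349 CPM in Control and from 309 to 389 CPM in PexRAP-AKO, with 3 of 5 libraries above the Control range. Its log2 fold change was 0.34 (SE 0.12, edgeR adjusted p = 0.215). In GENCODE M21 the exons of Idh3b share 5 bases (0.146% of their length) with Nop56 on the opposite strand, and no other of the 9 genes shares exon bases with a neighbour.

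The next step is made by the oxoglutarate dehydrogenase complex, of which Ogdh encodes the E1 decarboxylase and Dlst the E2 succinyltransferase. Ogdh (ENSMUSG00000020456, chromosome 11, 6291633 to 6356642) stood at 589.6, 646, 631, 514 and 475 CPM in Control replicates 2, 3, 5, 7 and 8, and at 558.5, 668.5, 696, 721 and 600.1 CPM in PexRAP-AKO replicates 1, 2, 3, 5 and 6. The PexRAP-AKO libraries 1 and 6 lay inside the Control range. The log2 fold change of Ogdh was the smallest of the 9, at 0.18 (SE 0.11, edgeR adjusted p = 0.445).

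Dlst (ENSMUSG00000004789, chromosome 12, 85110833 to 85134845) stood at 334, 370.0, 377, 298 and 274 CPM in Control and at 338, 423, 415, 442.5 and 367 CPM in PexRAP-AKO, in the same replicate order. Replicates 1 and 6 were again inside the Control range. The log2 fold change of Dlst was 0.26 (SE 0.11, edgeR adjusted p = 0.270).

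The last 3 enzymes close the cycle. Suclg1 (ENSMUSG00000052738, chromosome 6, 73248382 to 73276911) encodes the alpha subunit of succinyl-CoA synthetase, shared by its ATP-forming and GTP-forming versions. It ranged from 108 to 174 CPM in Control and from 144 to 204 CPM in PexRAP-AKO, with a log2 fold change of 0.32 (SE 0.14, edgeR adjusted p = 0.301). Fh1 (ENSMUSG00000026526, chromosome 1, 175600374 to 175625635) encodes fumarase, which hydrates fumarate to malate. It ranged from 119.9 to 178 CPM in Control and from 171 to 209 CPM in PexRAP-AKO, with a log2 fold change of 0.29 (SE 0.11, edgeR adjusted p = 0.236).

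Mdh2 (ENSMUSG00000019179, chromosome 5, 135778480 to 135790398) encodes the mitochondrial malate dehydrogenase, which returns malate to oxaloacetate. It ranged from 192 to 259 CPM in Control and from 225 to 312 CPM in PexRAP-AKO, with 4 of 5 PexRAP-AKO libraries above the Control range. Its log2 fold change was 0.32 (SE 0.11, edgeR adjusted p = 0.213). Over the 9 transcripts, the number whose PexRAP-AKO libraries all lay above all Control libraries was 0, while 2.08% of all genes had that pattern.

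**Figure D1:**
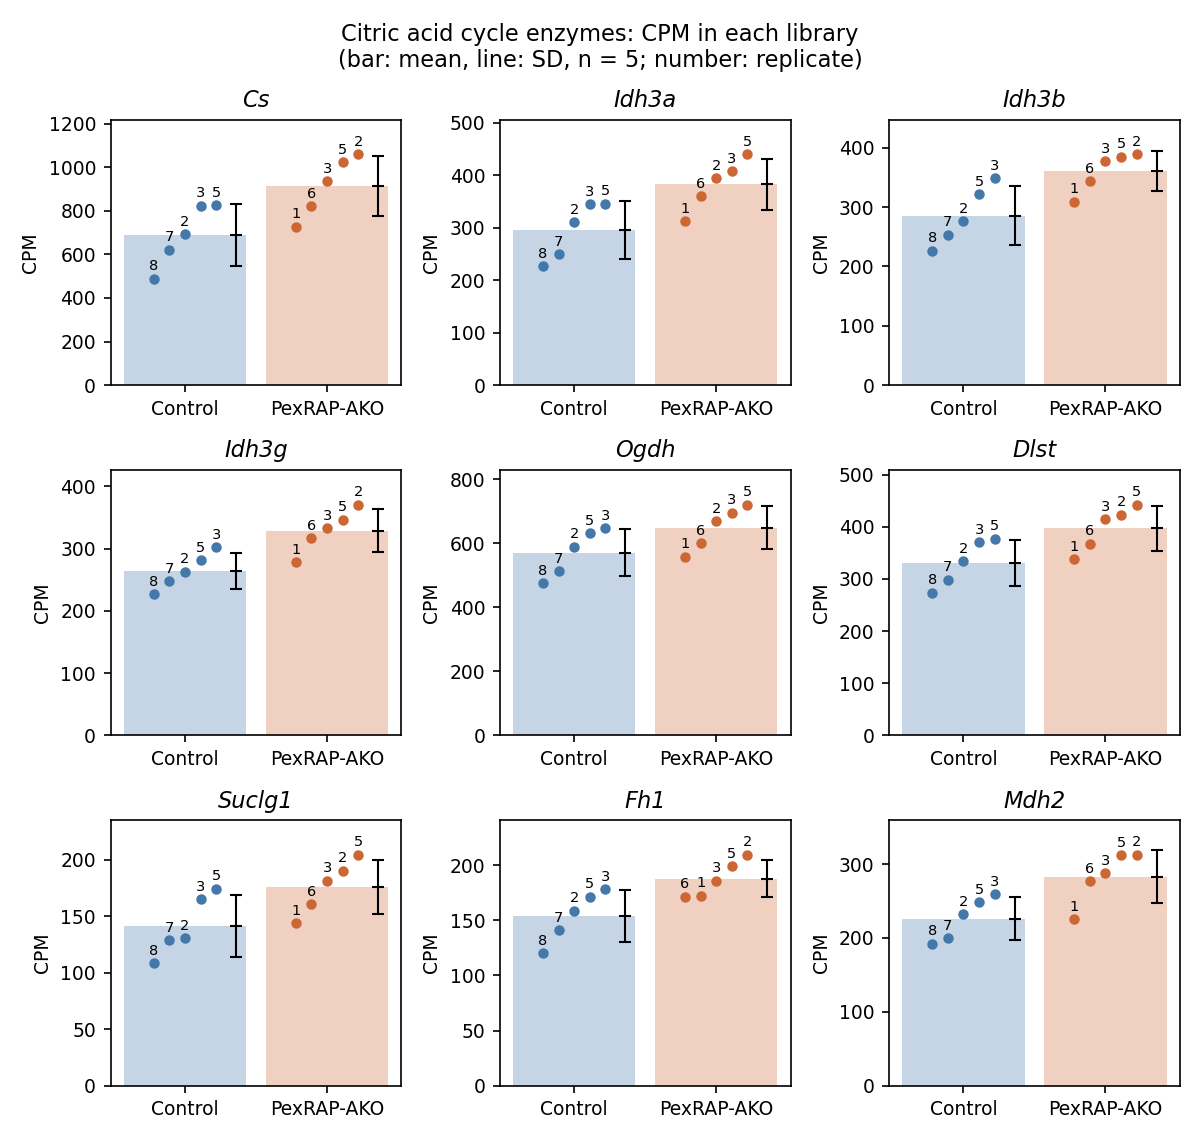
CPM of each of the 9 enzyme transcripts in the 5 Control (blue) and 5 PexRAP-AKO (orange) libraries, with bars for the mean, black lines for the SD and replicate numbers above the points, which are sorted by value. Control replicate 8 is the lowest library in all 9 panels, and PexRAP-AKO replicates 2, 3 and 5 lie above every Control library in all 9.

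The order of the libraries was nearly the same for each enzyme. Control replicate 8 was the lowest of the 10 libraries for 9 of 9 transcripts, with a median of 79.5% of the Control mean, and Control replicate 7 was also below every PexRAP-AKO library for 9 of 9. PexRAP-AKO replicates 2, 3 and 5 were above every Control library for 9 of 9, with medians of 136%, 127% and 135% of the Control mean. PexRAP-AKO replicate 1 was the lowest of its group for 8 of 9 (105% of the Control mean) and was above the highest Control library for 0 of 9. PexRAP-AKO replicate 6 (119%) was above it for 3 of 9. The transcripts thus formed a graded series in which the upper Control libraries (replicates 3 and 5) lay among the lower PexRAP-AKO ones.

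Over the 36 pairs of these transcripts, Pearson's r of log2 CPM across the 10 libraries was 0.90 to 0.99, with a median of 0.96. Within the 5 Control libraries the median was 0.97, and within the 5 PexRAP-AKO libraries 0.94, with a lowest value of 0.73. The points share library and scaling, and the values are a description. The 6 other genes most like the mean profile of the 9, among 9175 genes at 10 CPM or more, were Cyc1 (r = 0.99), Coasy, Uqcrc2, Slc25a11, Uqcrfs1 and Etfrf1. Cyc1, Uqcrc2 and Uqcrfs1 are subunits of respiratory complex III, Coasy makes coenzyme A, and Slc25a11 is the mitochondrial 2-oxoglutarate carrier. Such likeness was not rare: 321 of the 9175 genes had an r over 0.9.

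Levels of different enzymes were compared as RPKM, here CPM divided by the length of the merged exons in kilobases, with lengths from GENCODE M21. In Control the order was Cs (119.5 ± 24.7 RPKM), Ogdh (105 ± 13.7), Idh3g (98.0 ± 10.9), Idh3b (83.4 ± 14.5), Mdh2 (63.5 ± 8.28), Idh3a (58.2 ± 10.8), Fh1 (45.3 ± 6.96), Dlst (34.6 ± 4.67) and Suclg1 (30.6 ± 5.95, SD, n = 5 for each). For each of the 8 neighbouring pairs the gap between the means was smaller than the sum of their SDs. Because the transcripts varied together, the order within a library was steadier: 6 of the 8 neighbouring pairs stood in this order in 10 of 10 libraries. The exceptions were Cs above Ogdh (9 of 10) and Ogdh above Idh3g, which held in 5 of 5 Control but 2 of 5 PexRAP-AKO libraries. Merged exons count every annotated isoform, and Dlst has 9559 merged bases, so a gene with long rare isoforms is placed too low.

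Partners of 1 complex were compared within each library, a measure that scaling between libraries does not touch. The log2 difference Dlst minus Ogdh was -0.82, -0.80, -0.74, -0.78 and -0.79 in Control replicates 2, 3, 5, 7 and 8. In PexRAP-AKO replicates 1, 2, 3, 5 and 6 it was -0.72, -0.66, -0.75, -0.70 and -0.71. The groups met only at Control replicate 5 and PexRAP-AKO replicate 3. The mean difference moved by 0.08 toward Dlst (exact two-sided permutation p = 0.0159, adjusted p = 0.0794 over the 5 ratios tested, n = 5 each), which misses the threshold. Without Control replicate 5 the shift was 0.09 (exact permutation, adjusted p = 0.0397). That fit left out 1 of the 2 libraries at which the groups met, so their separation was set by the choice. Leaving out 1 other library at a time, the adjusted p was 0.0595 to 0.119 (exact permutation).

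Ratios among the subunits of isocitrate dehydrogenase varied more between libraries of a group than Dlst minus Ogdh, which had an SD of 0.03 in each group. Idh3b minus Idh3a differed between the groups by -0.03 (exact permutation p = 0.50) and Idh3g minus Idh3a by -0.07 (exact permutation p = 0.365), less than the SD within Control (0.09 and 0.13) and within PexRAP-AKO (0.07 and 0.10). Suclg1 minus Suclg2, the ratio to the GTP-specific beta subunit, differed by 0.24 (exact permutation p = 0.190), with an SD of 0.27 in Control. Suclg1 minus Sucla2, the ratio to the ATP-specific beta subunit, differed by -0.09 (exact permutation p = 0.190). Without Control replicate 2, whose value of -0.91 was far below the other 4 Control libraries, that difference was -0.14 (exact permutation, adjusted p = 0.0397). Those 4 libraries all lay above every PexRAP-AKO library, so the separation in that fit was set by the choice. Leaving out 1 other library at a time, the adjusted p of Suclg1 minus Sucla2 was 0.327 to 0.569 (exact permutation).

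The rest of the cycle was read from a list of 10 other genes. Ogdhl, a paralog of Ogdh, had 77 reads over all 10 libraries and was not tested. Of the 9 listed genes that were tested, 8 had a fold change above 0, and the median log2 fold change was 0.28. By edgeR 0 passed, 6 were higher at an unadjusted p under 0.05, and by DESeq2 Dld passed (adjusted p = 0.0326). DESeq2 gave Mrps36 no adjusted p. Over all genes, 0.0939% were called higher by adjusted edgeR p, 9.01% at that unadjusted level and 3.0% by DESeq2.

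Dld, the E3 subunit shared by the oxoglutarate, pyruvate and branched-chain dehydrogenases, had the smallest p of these other genes (log2 fold change 0.36, SE 0.10, edgeR adjusted p = 0.170). Sucla2 had a log2 fold change of 0.40 (SE 0.13), and Mrps36, a small protein that holds E3 in the oxoglutarate dehydrogenase complex, 0.51 (SE 0.20), at only 3.98 CPM in Control. The 4 subunits of succinate dehydrogenase, which is also respiratory complex II, had log2 fold changes of 0.22 (Sdha), 0.28 (Sdhb), 0.24 (Sdhc) and 0.49 (Sdhd), with edgeR adjusted p-values of 0.315, 0.351, 0.274 and 0.219.

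Idh2 and Suclg2, alternative forms of 2 of the enzymes, had the lowest fold changes of the cycle genes reported here. Their difference from the 9 was not tested. Idh2, the NADP-dependent mitochondrial isocitrate dehydrogenase, was at 170.4, 157, 174, 181 and 140.0 CPM in Control replicates 2, 3, 5, 7 and 8. It was at 178, 162, 130.1, 138 and 150.4 CPM in PexRAP-AKO replicates 1, 2, 3, 5 and 6. Its log2 fold change was -0.12 (SE 0.10, edgeR adjusted p = 0.598), and its r with the mean profile of the 9 enzymes was -0.31 over the 10 libraries, against 0.74 to 0.98 for the other cycle genes tested except Suclg2. Within the groups (n = 5 each) the r of Idh2 was 0.40 in Control and -0.63 in PexRAP-AKO. Those of the other genes without Suclg2 went down to 0.34 in Control (Mrps36) and 0.39 in PexRAP-AKO (Sdha). PexRAP-AKO replicates 3 and 5, among the highest libraries for the 9 enzymes, were the lowest for Idh2. Suclg2 averaged 32.4 ± 2.30 CPM in Control libraries and 34.5 ± 2.43 CPM in PexRAP-AKO libraries (SD, n = 5 each), with a log2 fold change of 0.09 (SE 0.07, edgeR adjusted p = 0.569) and an r of 0.44.

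**Figure D2:**
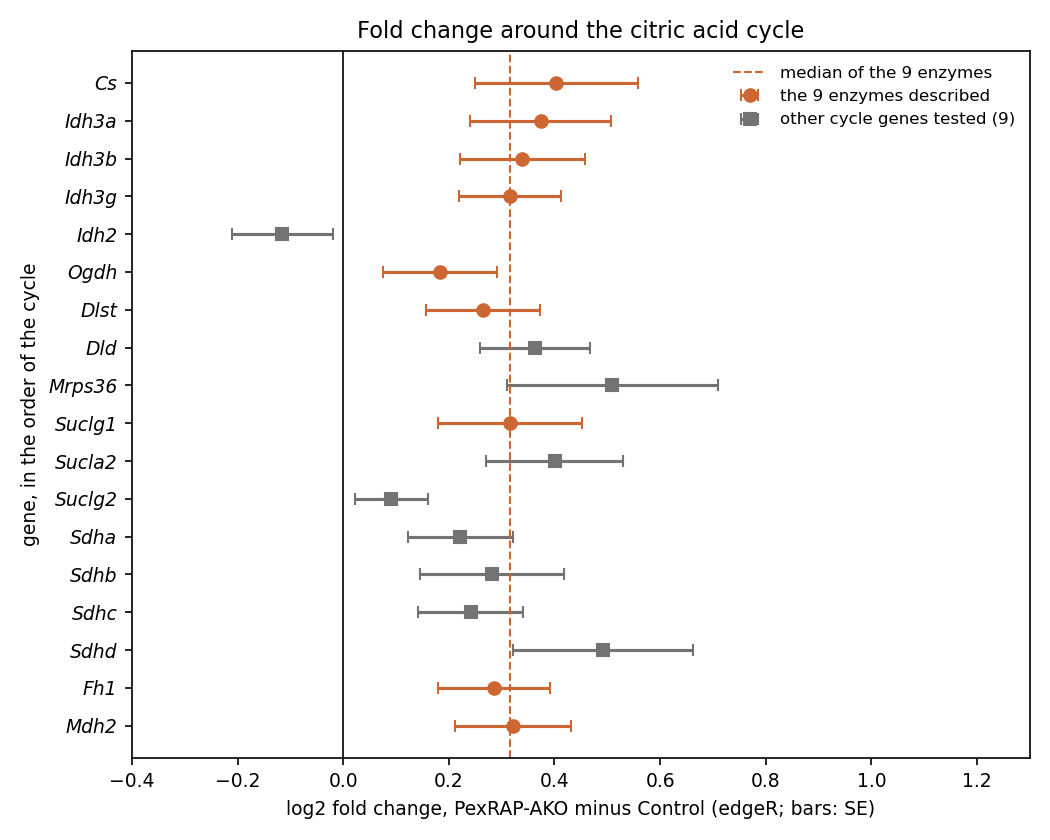
Log2 fold change (PexRAP-AKO minus Control, edgeR) with its SE for the 9 enzymes (orange circles) and the 9 other cycle genes tested (grey squares), listed in the order of the cycle, with a dashed line at the median of the 9 (0.32). Idh2 (-0.12) is the only plotted gene left of 0, and Suclg2 (0.09) and Ogdh (0.18) are the nearest to 0 of the rest.

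A further list held 45 genes that feed, drain or regulate the cycle, of which 44 were tested. By edgeR 0 passed in either direction, with 20 higher and 1 lower at an unadjusted p under 0.05, beside 9.01% and 6.44% of all genes. By DESeq2, which did not give all 44 an adjusted p, 7 passed, all higher, beside 3.0% of the genes given an adjusted p. The median log2 fold change was 0.24, and 36 of 44 were positive. The 4 with the smallest p were Sdhaf2, an assembly factor of succinate dehydrogenase (0.22, SE 0.05), Mdh1, the cytosolic malate dehydrogenase (0.48, SE 0.13), Dlat, the E2 subunit of pyruvate dehydrogenase (0.52, SE 0.14), and Lipt1, a lipoyl transferase that serves the E2 subunits (0.37, SE 0.10). Their edgeR adjusted p-values were 0.133, 0.143, 0.145 and 0.159. Sdhaf2 was the steadiest of them, at 34.4 to 36.7 CPM in Control and 38.0 to 43.7 CPM in PexRAP-AKO, so its groups did not overlap. Of the 44 genes, 2 had every PexRAP-AKO library above every Control library, Sdhaf2 among them, beside 2.08% of all genes.

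The 9 enzymes varied with markers of brown adipocytes. Of 15 such markers 14 were tested, and all 14 had a positive fold change (median log2 fold change 0.88). Of them 0 passed edgeR over all genes, with 3 higher at an unadjusted p under 0.05 and 0 by DESeq2. Over all genes, 9.01% were higher at that unadjusted level, 0.0939% by adjusted edgeR p and 3.0% by DESeq2. The brown adipocyte markers' summed level was 311 to 2615 CPM in Control and 633 to 3135 CPM in PexRAP-AKO. Ucp1, the uncoupling protein that defines thermogenic fat cells, ranged from 29.4 to 1228 CPM in Control and from 91.8 to 1565 CPM in PexRAP-AKO. Zic1, a marker of the classical interscapular brown lineage, was at most 0.223 CPM and was at 0 in 2 libraries. In bulk tissue, more cells of a type and more RNA per cell cannot be told apart.

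The brown adipocyte score, the mean log2 CPM of the tested markers, averaged 4.50 ± 1.25 over the Control libraries and 5.65 ± 0.91 over the PexRAP-AKO libraries (SD, n = 5 each, exact two-sided permutation p = 0.143). Across the 10 libraries the mean log2 CPM of the 9 enzymes followed that score with a Pearson's r of 0.92 (Spearman's rho 0.85). The relation was seen inside each group (r = 0.93 in Control and 0.85 in PexRAP-AKO, n = 5 each) and was 0.77 over the 8 libraries left without Control replicates 7 and 8. In Control the enzyme mean also went with log2 library size (r = 0.83), against 0.11 in PexRAP-AKO and 0.34 over all 10 libraries. For the other marker lists, r over the 10 libraries was -0.59 (white adipocyte) to 0.33 (macrophage). For B cell markers it was -0.82 in Control and -0.19 in PexRAP-AKO. The part of library size was not tested. By gene, r with the brown adipocyte score was highest for Idh3a (0.95) and Ogdh (0.95) and lowest for Idh3g (0.83) and Fh1 (0.84). The markers include genes of mitochondrial proteins (among them Ucp1, Cox7a1, Cox8b and Cpt1b), so the scores share a mitochondrial part, and r is a description.

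**Figure D3:**
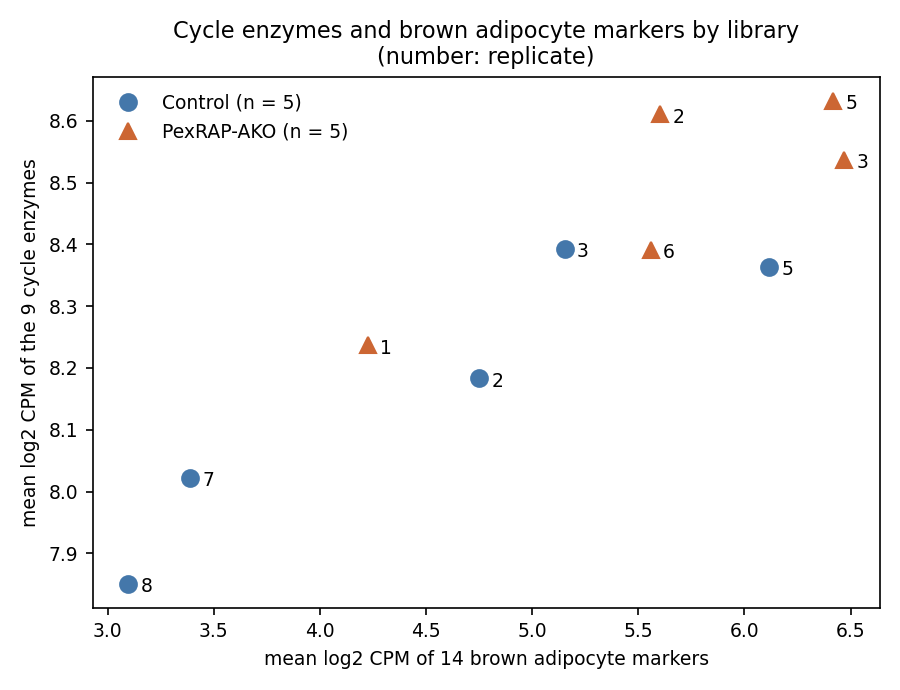
Mean log2 CPM of the 9 cycle enzymes (vertical axis) against mean log2 CPM of 14 brown adipocyte markers (horizontal axis), 1 point for each library, numbered by replicate. Control replicates 7 and 8 are lowest on both axes, and PexRAP-AKO replicates 3 and 5 are at the upper right.

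With the brown adipocyte score in the edgeR model, the median log2 fold change of the 9 enzymes was 0.14, against 0.32 without it. Idh3g kept 0.18 (SE 0.08, edgeR adjusted p = 0.565) and Cs 0.17 (SE 0.11), while Ogdh was at 0.02 (SE 0.07) and Dlst at 0.09 (SE 0.07). All 9 stayed positive and 0 passed. Because the score itself differed in mean between the groups, the part that goes with genotype and the part that goes with the score cannot be told apart in 10 libraries.

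Skeletal muscle markers stood the other way. All 13 tested of 15 had a negative fold change (median -2.24), with 0 passing edgeR, 8 lower at an unadjusted p under 0.05 and 0 by DESeq2. Over all genes, 6.44% were lower at that unadjusted level, 0.00671% by adjusted edgeR p and 1.26% by DESeq2. The muscle markers' summed level was 27.1 to 1341 CPM in Control, highest in replicate 8, and 19.0 to 137 CPM in PexRAP-AKO. The muscle score averaged 3.18 ± 2.15 over the Control libraries and 1.92 ± 1.16 over the PexRAP-AKO libraries (SD, n = 5 each, exact permutation p = 0.270). With that score in the model the median of the 9 enzymes was 0.25, and 0 passed edgeR. Control replicate 8, the library with the most muscle transcripts, was the lowest for all 9 enzymes.

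The summed level of endothelial markers, by total counts, was 585 to 751 CPM in Control and 438 to 554 CPM in PexRAP-AKO, without overlap. Their TMM-scaled score (mean log2 CPM) did overlap, at 6.55 to 6.87 in Control and 6.27 to 6.63 in PexRAP-AKO. By single gene, 1 of the 5 was lower without overlap, beside 198 of all 14913 genes. All 5 endothelial markers had a negative fold change (median log2 fold change -0.21), with 0 passing edgeR or DESeq2. At an unadjusted p under 0.05, 2 were lower, beside 6.44% of all genes. Of the 10 white adipocyte markers, 7 had a negative and 3 a positive fold change (median -0.10). Of these 10, 0 passed edgeR, and 1 was lower at the unadjusted level. By DESeq2 1 was called lower, beside 1.26% of the genes given an adjusted p. Without overlap 1 was lower, beside 198 of all 14913 genes. All 7 tested of 8 T cell markers had a positive fold change (median 1.47), with 0 passing edgeR or DESeq2. At the unadjusted level 3 were higher, beside 9.01% of all genes. The T cell markers' summed level was 7.26 to 14.2 CPM in Control and 8.30 to 99.1 CPM in PexRAP-AKO, or at most 16.9 CPM there without replicate 6. The 5 B cell markers also had positive fold changes (median 1.00), of which 0 passed at an adjusted or unadjusted p. The part of these markers in the enzyme difference was not tested, and without PexRAP-AKO replicate 6 the median log2 fold change of the 9 enzymes was 0.33.

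Single libraries moved the size of the difference but not its sign. Without Control replicate 8 the median log2 fold change of the 9 was 0.26, and without PexRAP-AKO replicate 1 it was 0.38, with adjusted p-values from 0.09995 (Idh3g) to 0.296 (Ogdh). All 9 fold changes were positive in each of the 20 alternative fits. Scaling by total counts alone lowered the median of the 9 to 0.24 and that of all genes to -0.07.

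**Figure D4:**
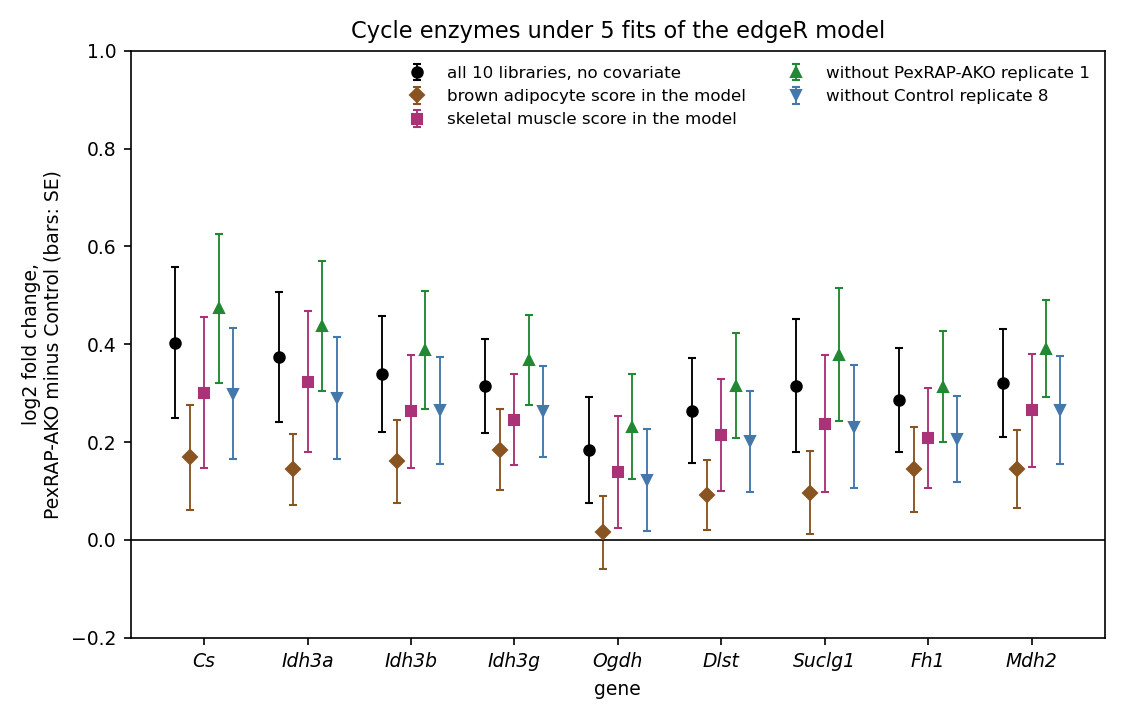
Log2 fold change with SE of each of the 9 enzymes in edgeR fits on all 10 libraries, with the brown adipocyte or skeletal muscle score as a covariate, and without PexRAP-AKO replicate 1 or Control replicate 8. The brown adipocyte score gives the lowest values for 9 of 9, and Ogdh is the lowest gene in each of the 5 fits.

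Short promoter stretches are shown for letters bound by nuclear regulators of mitochondrial genes, since the 9 transcripts varied together. RefSeq promoter windows (GRCm38.p6) were found for 8 of the 9 genes, and the 250 bases before each start were searched on both strands. The core of NRF1, nuclear respiratory factor 1 (GCGCNTGCG), was found for 2 of the 8 genes and in 3 of their 13 windows, beside 5.19% of all 32817 windows. Windows of 1 gene can overlap, and those 3 windows hold only the 2 NRF1 stretches printed below. The core of ETS factors such as GABPA (CCGGAAG) was found for 1 of 8 genes and in 1 of 13 windows, beside 6.90% of all windows, and the core site of estrogen-related receptors (AAGGTCA) for 0 of 8 genes and in 0 of 13 windows, beside 4.08%. These motifs do not overlap each other, their letters were settled with the sequences in view, and a match is a description of the letters only. The stretches with a match are printed 5′ to 3′ in the direction of the gene, with the motif in capitals.
Ogdh, NRF1 core, chr11:6292533-6292557, plus strand: taggtgttgtGCGCATGCGtaactc
Idh3g, NRF1 core, chrX:73786951-73786979, minus strand: gtgtgactgtGCGCGTGCGtaatgctagc
Idh3g, ETS core, chrX:73786985-73787011, minus strand: gctctaggcaCCGGAAGggggcgtaag
The match of Ogdh begins 15 bases before 1 of its several annotated starts, and those of Idh3g 72 and 104 bases before its start.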

How the data were processed

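The values are raw read counts per gene as the authors deposited them. The submitters' processing notes name STAR (2.0.4b), featureCounts of Subread, and edgeR. Strandedness, read length, genome build and annotation: not given in the sources used here. Among the 40724 table rows, 117 identifiers recurred with equal counts, and the repeats were dropped. The columns named wt and ko were matched to the Control and PexRAP-AKO titles by replicate number.

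Scaling was by TMM (edgeR 4.0.16, R 4.3.3). The filter was filterByExpr (minimum count 10, minimum total 15), after which 14913 genes remained. Genes were tested with edgeR's robust quasi-likelihood F test without covariates, with Benjamini-Hochberg adjustment over all genes and a threshold of 0.05. The SE of a log2 fold change is its size over the root of F. Log2 CPM used a prior count of 2, and CPM of single and summed marker genes used total counts. Single values were compared by exact two-sided permutation (smallest p 0.00794). The test was tried on simulated counts first. Alternatives were other scalings, no filter, DESeq2 1.42.0, limma voom 3.58.1, marker scores as covariates, a replicate block and leaving out libraries. Coordinates and lengths are from GENCODE M21, matched by identifier (99.9% of tested genes).

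Replicates of a group differed by at least 7.78 (chi-square per degree of freedom over genes), so each was kept. The 9 enzymes, the gene lists and the marker lists were chosen with earlier results of these data known. Named genes are the 9, the other cycle genes, the 4 feeding genes of smallest p, the 6 most alike in profile and Dhrs7b. The list of other cycle genes held 1 more gene than the 10 described, which is not reported here and is left out of the counts. Marker genes named singly were chosen after their values were seen.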

Additional observations from a re-analysis of the deposited data

Results flagged for a closer look

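In 4 of 64 groups of 5 values checked, 1 library stood well apart, where about 3.2 such groups arise by chance. None was a level of the 9 enzymes. In the log2 difference Suclg1 minus Sucla2, Control replicate 2 was low (-0.908, next -0.689). Control replicate 5 was low in white adipocyte score (10.98 log2 CPM, next 11.23) and high in macrophage score (7.56, next 6.64). PexRAP-AKO replicate 6 was high in T cell score (3.62, next 1.09), and without it the median log2 fold change of the 9 enzymes was 0.33.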

How the results depend on the processing

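The 9 enzymes kept a positive log2 fold change in 20 of 20 alternative fits, and 179 of 180 values stayed on the same side of the threshold. The exception was Idh3g, past it by DESeq2, so that DESeq2 called 1 of the 9 and each of the other fits 0. Of 180 values of other cycle genes, Dld passed by DESeq2, Mrps36 was given no adjusted p by DESeq2, and the rest stayed. Over all genes, the count of 15 (14 higher, 1 lower) became 26 with no low-count filter, 439 (309 higher, 130 lower) by DESeq2, 7 and 6 with the brown adipocyte and the skeletal muscle score, and 3 under the replicate block. It became 5 without Control replicate 8 and PexRAP-AKO replicate 6 together, a fit chosen after seeing the data. It was 3 (without Control replicate 8) to 58 (without PexRAP-AKO replicate 1) with 1 library left out, and the cause was not tested. DESeq2 gave an adjusted p to 10287 genes. Leaving out 1 library, the number of the 9 called stayed at 0. Dlst minus Ogdh differed by 0.0687 to 0.0920 and passed only without Control replicate 5. Suclg1 minus Sucla2 differed by -0.141 to -0.0683 and passed only without Control replicate 2. Under the replicate block (6 libraries, those numbered 2, 3 or 5 in both groups), the median of the 9 was 0.30 and their adjusted p-values 0.356 to 0.655. Deviations of same-numbered libraries had correlations of -0.02, -0.08 and 0.36, and number 5 alone correlated best with its own number. The design gives no pairing, and none was assumed. The 9 enzymes had at least 22835 reads each over the 10 libraries (Suclg1), while depth limits Mrps36 (687 reads) and Ogdhl (77 reads).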
